A study of Mus musculus with 12 samples.

Results

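The genes described here encode scaffold proteins of the postsynaptic density: Shank1, Shank2, Shank3, Homer1, Homer2, Homer3, Dlg4, Dlgap1 and Baiap2. They were chosen by name and not by a rule on measured values, although earlier results of these data were known. They are 9 of the 54752 genes in the count table. All 9 were found by symbol, and all 9 passed the filter on low counts in each comparison. Poly(A) RNA of the cerebellar cortex, dissected without the cerebellar nuclei, was sequenced from 12 mice, 4 on each of 3 diets. AL mice were fed ad libitum, DR mice were under dietary restriction, and KD mice received a ketogenic diet whose composition and duration are not given in the sources used here. All 12 were wild-type (WT) males of the F1 hybrid C57BL6J/FVB at 12 weeks of age, so the diet is the only label that differs between the groups. The DR mice received a daily portion that had been lowered in steps, and were killed early in the dark period without that day's meal, so restriction and the hours since the last meal cannot be told apart. The AL and DR libraries were those chosen from a larger set of mice for RNA quality, and no label gives a batch.

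Postsynaptic scaffolds hold glutamate receptors opposite the presynaptic release site and tie them to signalling enzymes and to the actin of the dendritic spine. Dlg4, also called PSD-95, binds receptors near the membrane, Dlgap1 (also called GKAP or SAPAP1) links Dlg4 to Shank proteins, and Shank proteins bind Homer proteins, which in turn bind group I metabotropic glutamate receptors and inositol trisphosphate receptors. In the cerebellar cortex, scaffolds of these families are found at synapses of Purkinje cells and of granule cells, and the members present differ between them.

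Short promoter motifs were looked for in RefSeq promoter windows on GRCm38.p6, which run from 250 bases before to 50 bases after a start site. A window was at hand for 7 of the 9 genes, with 12 windows in all, and Shank1 and Shank2 had none in the table. Homer1 is shown because short Homer1 transcripts are known to be induced by neuronal activity, through cyclic AMP response elements (CRE). Homer1 had 2 windows, and the one shown lies on the plus strand at chr13:93303507-93303806. Capitals mark TGACG, the core of the CRE.
Homer1: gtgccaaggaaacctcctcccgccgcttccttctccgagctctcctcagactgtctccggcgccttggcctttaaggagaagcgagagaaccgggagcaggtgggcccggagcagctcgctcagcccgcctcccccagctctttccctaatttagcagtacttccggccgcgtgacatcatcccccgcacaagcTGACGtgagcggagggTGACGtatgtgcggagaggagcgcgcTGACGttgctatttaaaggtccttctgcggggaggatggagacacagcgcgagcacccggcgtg
There were 3 matches to TGACG in this window, counted on either strand, and 0 in the other Homer1 window, at chr13:93307784-93308083. TGACG was found at least once in 20.8% of all 32851 windows and 3 or more times in 1.03%. The full palindrome TGACGTCA, which contains TGACG, was in 1.79% of all windows and in 0 of the 12 windows of the scaffold genes. All motifs were searched on both strands. Baiap2 and Homer3 are shown because, among the genes with a window, they had the lowest adjusted p-values on DR. Capitals mark the GC box GGGCGG or its reverse complement, and the windows lie on the plus strand at chr11:119942842-119943141 for Baiap2 and chr8:70282749-70283048 for Homer3.
Baiap2: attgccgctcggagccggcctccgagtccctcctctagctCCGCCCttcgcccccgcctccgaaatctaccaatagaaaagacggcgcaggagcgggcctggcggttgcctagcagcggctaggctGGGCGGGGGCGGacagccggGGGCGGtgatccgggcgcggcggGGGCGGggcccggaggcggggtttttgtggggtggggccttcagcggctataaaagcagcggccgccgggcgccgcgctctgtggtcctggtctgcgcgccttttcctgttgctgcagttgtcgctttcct
Homer3: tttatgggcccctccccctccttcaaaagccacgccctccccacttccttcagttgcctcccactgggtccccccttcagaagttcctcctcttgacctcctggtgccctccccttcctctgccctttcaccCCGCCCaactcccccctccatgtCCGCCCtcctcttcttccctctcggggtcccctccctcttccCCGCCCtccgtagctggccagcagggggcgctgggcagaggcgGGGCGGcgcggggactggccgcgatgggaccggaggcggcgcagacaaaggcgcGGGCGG
Both windows held 5 GC boxes, and the Baiap2 window also held 1 TATAAA, the TATA box. A GC box was present in 35.7% of all windows, 3 or more were present in 10.7%, and TATAAA was present in 13.6%. These matches describe letters in the windows, and binding of a factor was not measured.

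Between 31712084 and 40798644 reads per library were counted, and total counts did not differ detectably between the diets (exact permutation test, two-sided, p = 0.6 for DR against AL, 0.8 for KD against AL and 0.257 for KD against DR). Markers of Purkinje cells and of granule cells were present in every library, and every pair of mice on the same diet differed by more than sampling noise. Levels are given as CPM, the reads of a gene per 1000000 reads of its library after scaling with trimmed means of M-values (TMM), as mean ± SD over mice. A gene was called when its p from the quasi-likelihood test of edgeR, with Benjamini-Hochberg adjustment over all genes tested, was under 0.05.

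To compare levels between genes, CPM were divided by the exonic length of each gene in kilobases. Homer3, the long-form Homer protein typical of Purkinje cells, had the highest level with 78.7 ± 5.11 CPM per kb (SD, n = 12). Shank1 followed with 71.1 ± 5.73 CPM per kb, and the ranges of these genes overlapped. Baiap2, which encodes the insulin receptor substrate IRSp53, an actin-membrane linker that binds Shank proteins and Dlg4, had 49.0 ± 3.83 CPM per kb, and its highest library lay below the lowest Shank1 library. Shank3 had 39.9 ± 3.23, Shank2 38.2 ± 3.51, Dlg4 34.3 ± 1.39 and Dlgap1 29.4 ± 1.45 CPM per kb, and each of these overlapped its neighbour in the order. Homer1 stood apart with 4.66 ± 0.41 CPM per kb, a level 6.31-fold under that of Dlgap1, and Homer2 had the lowest level with 1.18 ± 0.13 CPM per kb, 3.97-fold under Homer1. Homer3 thus made up 93.2% of the summed Homer level on AL, 92.8% on DR and 93.2% on KD. Within the Shank family, Shank1 took 47.1%, 48.2% and 47.7% of the summed level on AL, DR and KD, Shank2 took 26.8%, 24.6% and 25.5%, and Shank3 took 26.1%, 27.2% and 26.9%.

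**Figure D1:**
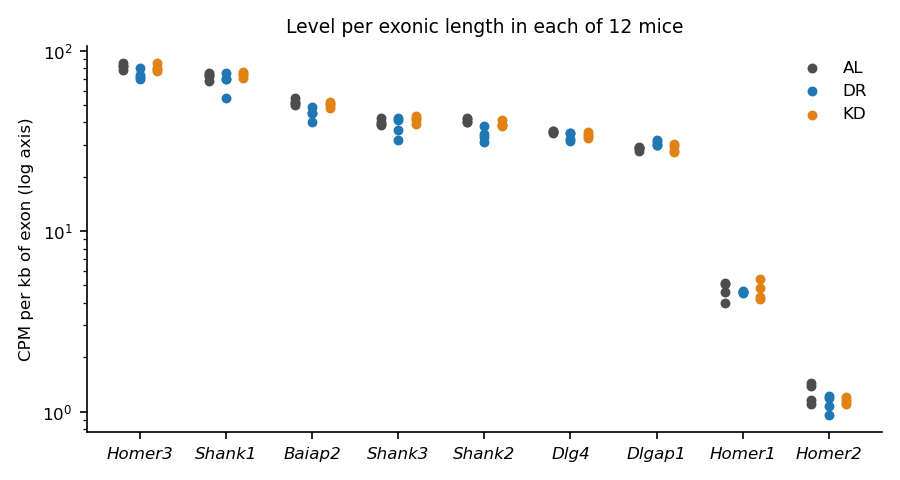
Level of each scaffold gene in CPM per kb of exon (log axis) in each of 12 mice, with AL in grey, DR in blue and KD in orange. Homer3 and Shank1 lie at the top (means of 78.7 and 71.1 CPM per kb), and Homer1 and Homer2 lie far below the rest (4.66 and 1.18 CPM per kb).

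The comparison of DR with AL asks whether the restricted diet changed these transcripts. Shank2 was lower on DR by 16.7% and was the only scaffold gene called, while 8 of 9 log2 fold changes were below 0 and Dlgap1 was the gene above 0. Across all genes tested, 3.06% were called in this comparison, in either direction (583 of 19052, with 252 or 1.32% higher and 331 or 1.74% lower on DR). Without adjustment, 3 scaffold genes were lower and 1 was higher at a p under 0.05, beside 18.0% of all genes tested in either direction. The median log2 fold change of the 9 genes was -0.11, beside 0.00 over all genes tested, of which 49.0% were below 0.

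**Figure D2:**
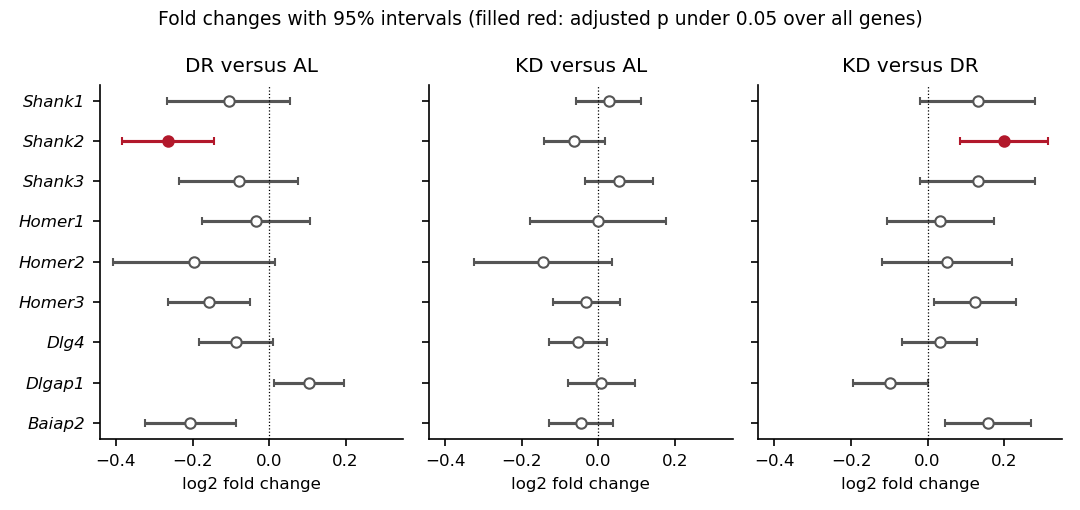
Log2 fold change of each scaffold gene with its 95% interval in the 3 comparisons, with genes called at an adjusted p under 0.05 over all genes filled in red. Shank2 is the gene filled, at -0.26 for DR against AL and 0.20 for KD against DR, and no gene is filled for KD against AL.

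The Shank genes encode the large multidomain scaffolds of the inner layer of the postsynaptic density. Shank2 (ENSMUSG00000037541.21, chromosome 7, 144001928 to 144424494, plus strand) had 451, 431, 455 and 433 CPM in the 4 AL mice, 335, 356, 374 and 410 CPM in the 4 DR mice, and 413, 442, 419 and 419 CPM in the 4 KD mice. Every DR mouse was below every AL mouse and every KD mouse, although the highest DR mouse came within a few CPM of the lowest KD mouse. The level was 369 ± 31.8 CPM on DR and 443 ± 12.2 CPM on AL (n = 4 each), a log2 fold change of -0.26 (SE 0.06, 95% interval -0.38 to -0.14, adjusted p = 0.0219). With 11410 to 18297 counts of Shank2 per library, the counting error was 0.79% of the level on AL and 0.88% on DR, well under the spread between mice of 2.77% and 8.63%. The call was lost without AL replicate 1, AL replicate 4, DR replicate 2 or DR replicate 3 (adjusted p = 0.0737, 0.0513, 0.0556 and 0.0563), while the log2 fold change stayed between -0.31 and -0.22 when any library was left out. In bulk tissue, fewer cells that express a gene and less of its RNA per cell cannot be told apart.

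Shank1 (ENSMUSG00000038738.15, chromosome 7, 44310253 to 44360572, plus strand) had 761, 717, 794 and 772 CPM on AL and 577, 728, 731 and 791 CPM on DR. DR replicate 1 was far below the other DR mice, which lay among the AL mice. The log2 fold change of Shank1 was -0.11 (SE 0.08, 95% interval -0.27 to 0.06, adjusted p = 0.504). Shank3 (ENSMUSG00000022623.16, chromosome 15, 89499623 to 89560261, plus strand) had 353, 362, 389 and 369 CPM on AL and 293, 389, 332 and 381 CPM on DR, with 2 DR mice below every AL mouse and 2 among them. Its log2 fold change was -0.08 (SE 0.07, adjusted p = 0.623). Without DR replicate 1, the lowest DR library for each of the 3 Shank genes, the log2 fold change was -0.02 for Shank1, -0.0014 for Shank3 and -0.22 for Shank2, which stayed called (adjusted p = 0.0468). The spread between DR mice was 12.9% of the mean for Shank1 and 12.8% for Shank3, against 4.29% and 4.16% on AL and 3.11% and 4.11% on KD.

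The Homer genes encode adaptors that bind the metabotropic receptor mGluR1 and intracellular calcium channels. Homer3 (ENSMUSG00000003573.15, chromosome 8, 70282827 to 70294361, plus strand) had 293, 283, 284 and 270 CPM on AL and 252, 239, 246 and 277 CPM on DR. Of the DR mice, 3 of 4 were below every AL mouse, and DR replicate 4 was above the lowest AL mouse. The log2 fold change was -0.16 (SE 0.05, 95% interval -0.26 to -0.05, adjusted p = 0.111). The value of Homer3 is uncertain in another respect, since 25.4% of its exonic bases overlap exons of Ddx49 on the opposite strand, the library kit does not keep strand, and reads from the overlap cannot be assigned by it. For the other 8 genes such overlaps covered at most 4.16% of exonic bases.

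Homer1 (ENSMUSG00000007617.18, chromosome 13, 93299635 to 93405129, plus strand) had 55.1, 60.7, 47.9 and 61.7 CPM on AL and 55.3, 55.5, 54.8 and 54.3 CPM on DR. The DR mice were close to each other, with a spread of 1.005% of the mean, whereas the AL mice spread by 11.2% and the KD mice by 12.1%. Counting error alone amounted to 2.27% on DR, which was larger than that DR spread. The log2 fold change was -0.04 (SE 0.07, 95% interval -0.18 to 0.11, adjusted p = 0.834). The counts pool all transcripts of a gene, 12 in the annotation for Homer1, so the long and the short, activity-induced forms of Homer1 were not separated. Homer2 (ENSMUSG00000025813.14, chromosome 7, 81600481 to 81707527, minus strand), the gene with the fewest counts (437 to 676 per library), had 14.7, 17.4, 18.1 and 13.8 CPM on AL and 12.1, 15.04, 15.4 and 13.5 CPM on DR. The diets overlapped, and the interval of its log2 fold change of -0.20 was wide (SE 0.10, 95% interval -0.41 to 0.01, adjusted p = 0.316).

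Dlg4 (ENSMUSG00000020886.17, chromosome 11, 70016942 to 70047522, plus strand), the receptor-binding scaffold of the outer layer, had 469, 462, 473 and 474 CPM on AL and 419, 427, 462 and 460 CPM on DR. The AL mice were the tightest group of any scaffold gene on AL, with a spread of 1.15% of the mean, and DR replicate 3 just reached into their range. The log2 fold change of Dlg4 was -0.09 (SE 0.05, 95% interval -0.18 to 0.01, adjusted p = 0.342). Dlgap1 (ENSMUSG00000003279.17, chromosome 17, 69969073 to 70821413, plus strand), the link from Dlg4 to Shank proteins, had 517, 494, 514 and 526 CPM on AL and 537, 535, 572 and 561 CPM on DR. Every DR mouse was above every AL mouse, the opposite order to Shank2, and the log2 fold change of Dlgap1 was 0.10 (SE 0.04, 95% interval 0.01 to 0.20, adjusted p = 0.217). Baiap2 (ENSMUSG00000025372.16, chromosome 11, 119942763 to 120006782, plus strand) had 260.4, 248, 272 and 255 CPM on AL and 226, 201, 226 and 244 CPM on DR. Every DR mouse was below every AL mouse, and the log2 fold change was -0.21 (SE 0.06, 95% interval -0.32 to -0.09), with an adjusted p of 0.0608 that missed the threshold. The paper, which also used edgeR at this threshold on these same AL and DR mice, names both Baiap2 and Shank2 among its genes lower on DR. It called more genes over all than were called here, and it is no independent support. Diets did not overlap for 3 of the 9 genes, Shank2 and Baiap2 lower on DR and Dlgap1 higher, beside 10.9% of all genes tested.

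**Figure D3:**
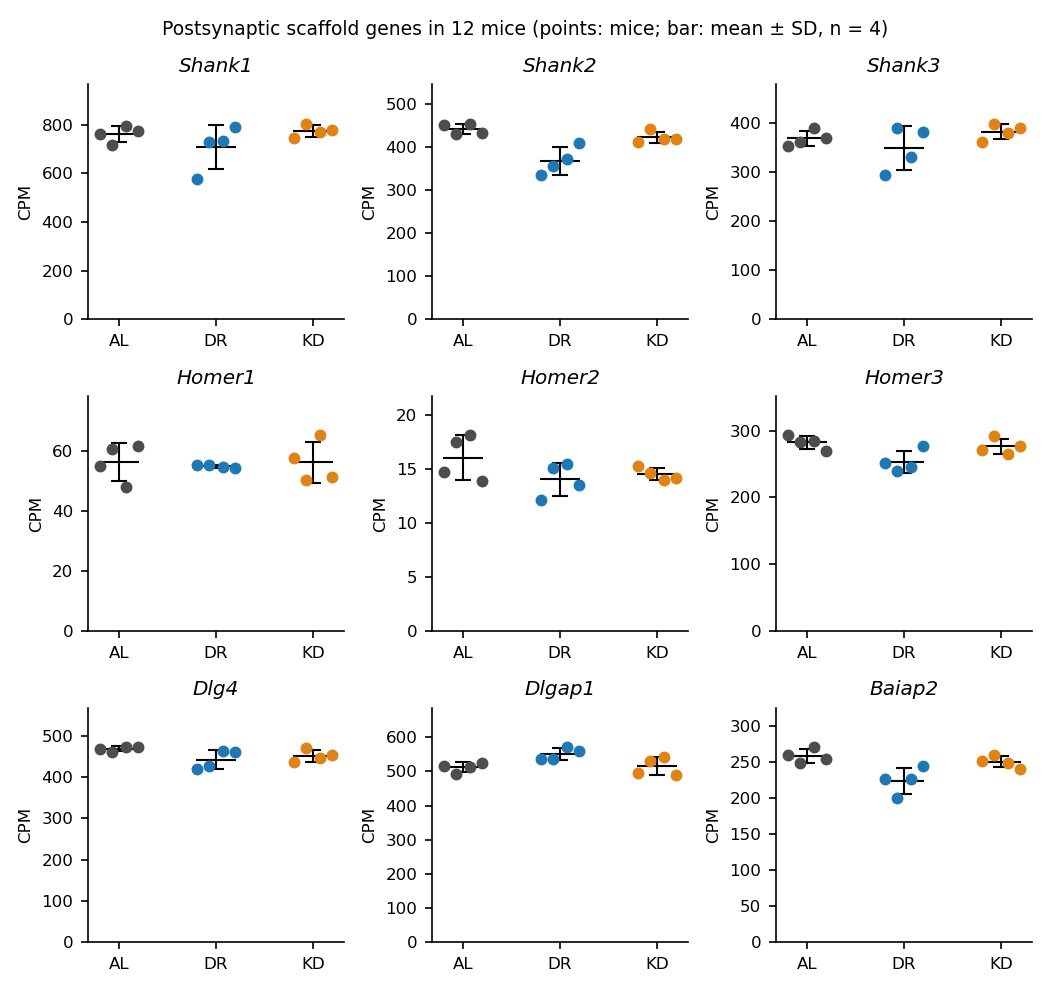
CPM of each scaffold gene in the 12 mice by diet, with points for mice and bars for mean ± SD (n = 4). Shank2 (369 CPM on DR, 443 on AL) and Baiap2 (224 and 259 CPM) lie lower in all 4 DR mice than in any AL mouse, and Dlgap1 (551 and 513 CPM) lies higher.

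The comparison of KD with AL asks the same of the ketogenic diet. No scaffold gene was called, as was the case for every gene tested (0%, 0 of 19036 by edgeR). Without adjustment, 928 genes (4.87% of those tested) had p under 0.05, and none of the 9 scaffold genes was among them. DESeq2 called 10 genes, and 0 of the 9. The log2 fold changes ran from -0.14 for Homer2 to 0.05 for Shank3, their adjusted p-values were all at least 0.994, and the diets overlapped for all 9 genes, beside 2.96% of all genes tested whose diets did not. For Shank2 the KD level was 423 ± 12.8 CPM, a log2 fold change against AL of -0.06 with a 95% interval of -0.14 to 0.02, so a fall on KD as large as the estimate on DR lay outside the interval. For Baiap2 the level was 251 ± 7.59 CPM on KD, and the interval of -0.13 to 0.04 likewise left out the DR estimate. That estimate has its own error, however, and its 95% interval of -0.32 to -0.09 overlapped the KD interval. The 2 comparisons share the AL mice, so these intervals are no test of KD against DR. In the direct comparison of KD with DR, Baiap2 was not called (edgeR, adjusted p = 0.103).

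The comparison of KD with DR sets the restricted and ketogenic diets side by side, and it shares the DR mice with the comparison of DR with AL. Shank2 was higher on KD than on DR by 14.8% (log2 fold change 0.20, SE 0.05, 95% interval 0.08 to 0.32, adjusted p = 0.0457), without overlap between the mice. It was the 1 scaffold gene called of 9, beside 4.94% of all genes tested (942 of 19087, with 463 or 2.43% higher and 479 or 2.51% lower on KD). This call was close to the threshold. It was lost when any library but DR replicate 4 was left out (adjusted p = 0.0863 to 0.117), with library size as the only scaling (adjusted p = 0.0525), and when only genes above 10 CPM were tested (adjusted p = 0.0529).

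The other scaffold genes did not pass the test between KD and DR. Baiap2 was 251, 259.7, 249.6 and 241 CPM in the KD mice, with a log2 fold change of 0.16 (SE 0.05, adjusted p = 0.103), and its lowest KD mouse lay under its highest DR mouse. Homer3 had 271, 293, 265 and 276 CPM on KD (log2 fold change 0.12, SE 0.05, adjusted p = 0.190). Shank1 had 745, 804, 769.7 and 777 CPM on KD and Shank3 had 362, 398, 379 and 389 CPM, each with a log2 fold change of 0.13 (SE 0.07, adjusted p = 0.346 and 0.339), and the KD range of each overlapped the DR range. Without DR replicate 1, these log2 fold changes were 0.05 and 0.06. Dlgap1 had 495, 532, 544 and 489.9 CPM on KD, and its log2 fold change of -0.10 (SE 0.05, adjusted p = 0.267) was the only one below 0. Dlg4 (437, 471, 445 and 455 CPM on KD), Homer1 (57.6, 50.5, 65.4 and 51.5 CPM) and Homer2 (15.2, 14.6, 13.9 and 14.2 CPM) had log2 fold changes of 0.03, 0.03 and 0.05 and overlapped between the diets. The median over the 9 genes was 0.12, beside 0.00 over all genes tested.

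Markers of the cells that carry these synapses were measured in the same libraries. The Purkinje cell list (Pcp2, Calb1, Car8, Ppp1r17, Slc1a6, Rgs8 and Skor2, none at 0) summed to 3796 to 4015 CPM on AL, 3204 to 3643 CPM on DR and 3822 to 3914 CPM on KD, so every DR mouse was below every mouse on the other diets. Most of the difference in this sum came from its 2 most abundant genes, Rgs8 (1367 ± 89.1 CPM on DR and 1550.2 ± 49.7 CPM on AL) and Car8 (973 ± 82.5 and 1153 ± 34.0 CPM), which made up 363 of the 444 CPM between the AL and DR means. Calb1, like Rgs8 and Car8, was lower on DR without overlap, at 468 to 503 CPM on DR and 514 to 541 CPM on AL. Pcp2 (log2 fold change -0.04), Ppp1r17 (-0.07), Slc1a6 (-0.15) and Skor2 (0.05) overlapped between DR and AL. Of its 7 genes, 1 was called lower on DR than on AL: Car8, a carbonic anhydrase-related protein that binds the inositol trisphosphate receptor (log2 fold change -0.25, adjusted p = 0.0327). Car8 was also the 1 called between KD and DR (0.24, adjusted p = 0.0164), and no marker of the list was called between KD and AL. The granule cell list of 6 genes, none at 0, summed to 4516 to 5029.7 CPM on AL, 4689.7 to 4849.7 CPM on DR and 4605 to 4803 CPM on KD, which overlapped. Its genes did not move together, since none was called between DR and AL by edgeR, with 1 higher and 1 lower before adjustment, while between KD and DR Fat2 was called higher on KD (0.20, adjusted p = 0.0257) and Cbln3 lower (-0.21, adjusted p = 0.0145). The 4 markers of Bergmann glia and astrocytes summed to 572 to 641 CPM on AL and 487 to 529.8 CPM on DR, and Aqp4 and Gja1 of that list were called lower on DR (log2 fold changes -0.52 and -0.24), while Gfap and Gdf10 overlapped. Sums of the oligodendrocyte list overlapped between DR and AL, and choroid plexus markers were highest in a KD mouse, at 9.46 CPM against at most 2.09 CPM on AL and 1.73 CPM on DR.

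Each scaffold gene was then given as a percentage of a marker sum, mouse by mouse. Relative to the Purkinje cell sum, Shank2 was 11.2%, 10.98%, 11.99% and 11.2% in the AL mice and 9.31%, 11.1%, 11.04% and 11.3% in the DR mice. The DR mice other than replicate 1 lay within the AL range, so the diets overlapped. Baiap2 was 6.64 ± 0.36% of that sum on AL and 6.49 ± 0.24% on DR, and Homer3 was 7.25 ± 0.21% and 7.34 ± 0.26%, both with overlap. Dlgap1 was the only scaffold gene whose diets did not overlap on this scale: it was 13.2 ± 0.51% on AL, 15.98 ± 0.98% on DR and 13.4 ± 0.67% on KD, with every DR mouse above every other mouse. The Purkinje cell sum was itself lower on DR, which raises any percentage of it. The log2 ratio of DR over AL for Dlgap1 was 0.28 on this scale, against a log2 fold change of 0.10 in CPM. Relative to the granule cell sum, Shank2 was 7.71 ± 0.59% on DR and 9.50 ± 0.38% on AL, and Baiap2 was 4.70 ± 0.37% and 5.55 ± 0.16%, both lower on DR without overlap. With the Purkinje cell sum taken without Rgs8 and Car8, an alternative chosen after seeing the data, the 5 remaining markers summed to 1138 to 1233 CPM on AL and 1068 to 1177 CPM on DR, which overlapped. Shank2 was then 33.1 ± 3.36% of the sum on DR and 36.998 ± 2.04% on AL and Baiap2 20.1 ± 1.46% and 21.7 ± 1.52%, both still with overlap. Dlgap1 was 49.4 ± 3.27% on DR and 42.9 ± 1.97% on AL, higher without overlap, but its KD mice (43.7 ± 2.81%) then overlapped the DR mice. Car8, Aqp4 and Gja1 were called lower on DR as Shank2 was, and the part of these cell types in the result was not tested.

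**Figure D4:**
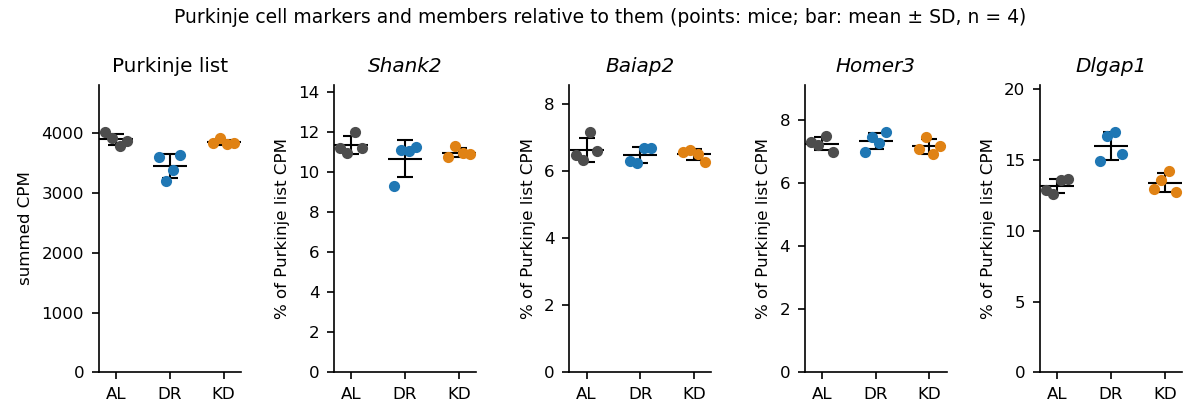
Summed CPM of the 7 Purkinje cell markers, and Shank2, Baiap2, Homer3 and Dlgap1 as a percentage of that sum, in each mouse by diet (points for mice, bars for mean ± SD, n = 4). The marker sum lies lowest on DR (3204 to 3643 CPM), and on the relative scale only Dlgap1 separates DR (15.98%) from AL (13.2%).

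Other synaptic genes and activity-induced genes were followed through 7 further lists. Of 32 other excitatory postsynaptic scaffold genes tested, 1 was called lower on DR than on AL and none higher: Sipa1l1, a GTPase-activating protein for Rap that binds Dlg4 (105 ± 4.89 CPM on DR and 121 ± 4.04 CPM on AL, log2 fold change -0.21, adjusted p = 0.0243). Its list had a median log2 fold change of -0.09, with 25 of 32 genes below 0. Between KD and DR, Sipa1l1 and its relative Sipa1l2 were called higher on KD (0.23 and 0.27, adjusted p = 0.00952 and 0.0287).

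The clients of Homer and Shank proteins in the metabotropic glutamate receptor pathway numbered 15, and 2 of them were called lower on DR. Ryr1, a calcium release channel of the endoplasmic reticulum, was 103 ± 12.4 CPM on DR and 133 ± 6.62 CPM on AL (log2 fold change -0.36, SE 0.07, adjusted p = 0.0129). Ryr1 was called higher on KD than on DR (0.32, adjusted p = 0.0108). The list had 12 of 15 log2 fold changes below 0 on DR against AL and a median of -0.09.

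Among 22 regulators of spine actin, no gene was called by edgeR in any comparison. At a p under 0.05 without adjustment, 4 were lower on DR than on AL, 2 lower on KD than on AL and 2 higher on KD than on DR, and DESeq2 called 2, 0 and 1. Over all genes tested, 18.0%, 4.87% and 18.7% had such a p in these comparisons, in either direction. DESeq2 called 1012, 10 and 1338 genes over all, with 19052, 19036 and 19087 genes passing the filter. The same shares and totals stand beside the unadjusted and DESeq2 counts of the adhesion, inhibitory and active zone lists that follow. The median log2 fold change of the actin regulators on DR against AL was -0.06. Of 17 postsynaptic adhesion proteins none was called by edgeR either. Without adjustment, 2 were lower and 1 higher on DR than on AL, none differed between KD and AL, and 4 were higher on KD than on DR, and DESeq2 called 1, 0 and 2. The median of that list on DR against AL was -0.04. Of 13 inhibitory postsynaptic scaffold genes tested, 1 was called lower on DR: Dmd, which encodes dystrophin, a component of inhibitory synapses on Purkinje cells (54.0 ± 3.09 CPM on DR, 65.5 ± 0.61 CPM on AL, log2 fold change -0.28, adjusted p = 0.00711). The median of that list was -0.12, beside -0.11 for the 9 excitatory scaffold genes. DESeq2 called 3 of the 13 lower on DR than on AL. Between KD and DR edgeR called none of them, although 13 of 13 log2 fold changes were above 0, with a median of 0.13, and 8 were higher on KD at a p under 0.05 without adjustment. DESeq2 called 3 of the 13 higher on KD than on DR. Of 16 presynaptic active zone scaffolds, none was called on DR against AL by edgeR, with 5 lower before adjustment and 1 called lower by DESeq2, and 3 were called higher on KD than on DR. These were Rims4, a member of the RIM family (0.20, adjusted p = 0.0200), Unc13c, a vesicle priming factor (0.18, adjusted p = 0.0238), and Pclo, the large active zone protein piccolo (0.19, adjusted p = 0.0442).

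Genes induced by neuronal activity, the class to which the short Homer1 transcript belongs, had the median farthest from 0 of these lists on DR against AL, at -0.39. Of 12 tested, 3 were called lower on DR than on AL. Egr4, a zinc finger transcription factor, was 1.22 ± 0.18 CPM on DR and 2.75 ± 0.29 CPM on AL (log2 fold change -1.16, adjusted p = 0.00164). Egr1, of the same family, fell by 0.34 on the log2 scale (adjusted p = 0.0133), and Nr4a1, an orphan nuclear receptor, fell by 0.57 (adjusted p = 0.0230). All 3 and Arc, an immediate early gene of the postsynaptic density, were called higher on KD than on DR (1.10, 0.35, 0.56 and 0.38, adjusted p = 0.00139, 0.0161, 0.0311 and 0.0139). Homer1, summed over its transcripts, did not pass the test in these comparisons. TGACG was present in 11 of 19 promoter windows, which came from 9 genes of this list, beside 20.8% of all windows. A gene can have several windows, and those on chromosome 18, where the called gene Egr1 lies, were not searched. Any role of these sites was not tested. In the comparison of KD with AL no gene of any of the 7 lists was called by edgeR or by DESeq2. Without adjustment, 2 other excitatory scaffold genes, 2 spine actin regulators and 1 inhibitory scaffold gene were lower on KD than on AL at a p under 0.05, and 1 activity-induced gene and 1 client were higher. Over all genes tested, 4.87% had such a p between KD and AL, in either direction.

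**Figure D5:**
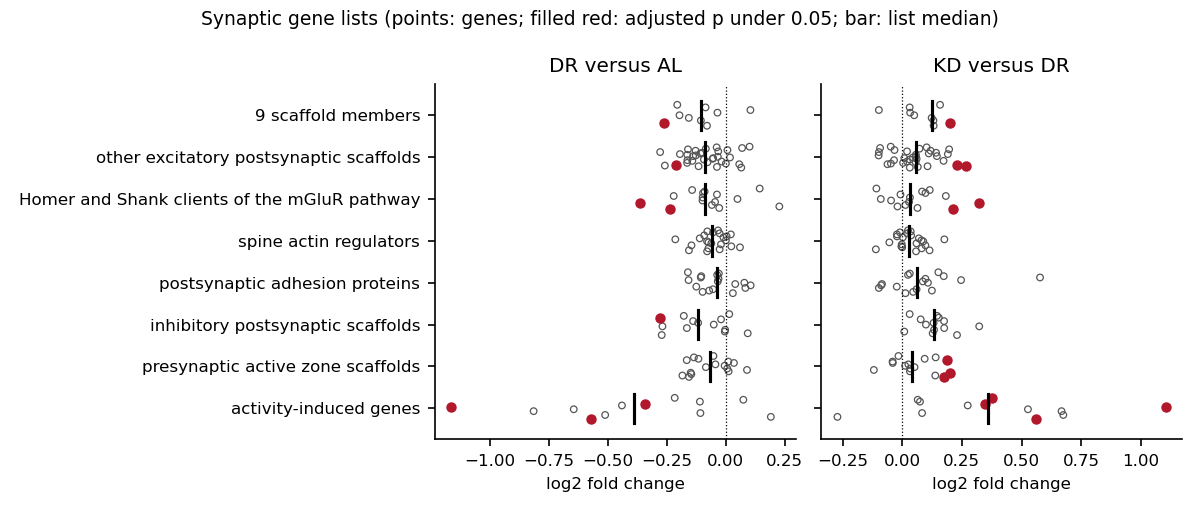
Log2 fold changes of the 9 scaffold genes and of 7 further synaptic lists for DR against AL and KD against DR, with a point for each gene, called genes in filled red and a bar at each list median. The scaffold genes have medians of -0.11 and 0.12, and the activity-induced genes have the medians farthest from 0 (-0.39 and 0.36).

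The genes whose levels followed Shank2 most closely over the 12 libraries were sought by Pearson's r of log2 CPM among the 10073 genes that averaged 10 CPM or more. They were Shisa6, an auxiliary subunit of AMPA receptors (r = 0.974), Arf3, a small GTPase of the Golgi (r = 0.963), and Etl4 (r = 0.957). Shisa6 was 234 ± 9.05 CPM on AL, 207 ± 12.3 CPM on DR and 226 ± 5.76 CPM on KD. The libraries share their diets and dissections, and these values describe likeness only.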

How the data were processed

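Poly(A) RNA from the cerebellar cortex of 12 mice was sequenced in paired ends. Per the labels and methods, the authors trimmed reads with Trimmomatic 0.39, aligned them to GRCm38.p6 with STAR 2.7.0f and counted them per gene with featureCounts of Subread 1.6.4, and the deposited table holds these raw counts for 54752 genes and an exonic length, without normalization. Whether counting used strand is not given in the sources used here. Diets came from the labels, and replicates were numbered in accession order. Nothing in the labels says which mice shared a cage or day, so p-values measure the spread between these samples.

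Symbols were matched for 54723 genes. Low counts were removed with filterByExpr, at a minimum count of 10 and a minimum total of 15. Each pair of diets was TMM-normalised and fitted on its own 8 libraries in edgeR 4.0.16 (R 4.3.3), using the quasi-likelihood test, and p-values were adjusted by Benjamini-Hochberg at a threshold of 0.05. The scripts were tested on simulated data. CPM used TMM-scaled library sizes, and log2 CPM a prior count of 2. DESeq2 1.42.0, other scalings and filters, a fit over 12 libraries and leaving out each library were tried as alternatives. Named genes were the 9 members, up to 5 called genes of each pathway list in each comparison, and for each called member the 3 genes most like it. Markers named beyond these were chosen after their values were seen. The members and lists were chosen with earlier results of these data known, so they are no independent support for a direction. Some genes of the lists are not reported here by name.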

Additional observations from a re-analysis of the deposited data

How the results depend on the processing

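No paired analysis was possible because the replicate numbers were given in accession order and link no mice across diets. Scaffold genes called between DR and AL numbered 1, and became 3 with DESeq2 or with no filter on low counts, 2 with all 12 libraries in 1 fit, and 0 to 3 when a library was left out (0 without AL replicate 1, AL replicate 4, DR replicate 2 or DR replicate 3, and 3 without DR replicate 4). The genes added were Baiap2 (adjusted p = 0.0147 with DESeq2, 0.00234 without the filter, 0.0260 with 12 libraries and 0.0369 without DR replicate 4) and Homer3 (0.0489, 0.0427 and, without DR replicate 4, 0.0457). Between KD and DR the 1 call became 2 with DESeq2 or with no filter, 0 with library size only or with a mean above 10 CPM, and 0 to 2 when a library was left out (2 without DR replicate 4). Over all genes, 583 calls between DR and AL became 1012 with DESeq2, 1258 with no filter and 235 to 712 when a library was left out. The 0 calls between KD and AL became 10 with DESeq2, 118 with no filter and 0 to 6 without a library. The 942 between KD and DR became 1338 with DESeq2, 1503 with no filter and 467 to 946 without a library.

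With library size as the only scaling, the share of calls that were higher on DR than on AL was 57.0% against 43.2% with TMM, and the share higher on KD than on DR was 37.9% against 49.2%. Shank2 kept its direction in all 14 alternatives of each of those comparisons, and passed the threshold in 10 of 14 for DR against AL (adjusted p from 1.10e-05 to 0.0737) and in 5 of 14 for KD against DR. Values near 0 changed sign: Homer1 between KD and AL became 0.000449 with DESeq2, 0.000603 with DESeq2 size factors, 0.000800 with no filter and 0.000459 with a mean above 10 CPM. When a library was left out, the log2 fold change ran from -0.0789 to 0.0463 for Homer1, -0.00348 to 0.0490 for Shank1 and -0.0174 to 0.0296 for Dlgap1 between KD and AL, from -0.105 to 0.00967 for Homer1 between DR and AL, and from -0.0462 to 0.0813 for Homer1 and -0.0146 to 0.101 for Homer2 between KD and DR. The cause of these changes was not tested. Of 378 values of the scaffold genes under the alternatives, 339 kept their direction and side of the threshold, 13 lost and 10 gained a call, and 16 changed sign. Homer2, with 437 to 676 counts per library, had a counting error of 4.18% to 4.50% of its level, the largest of the 9.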
